A study of Mus musculus with 24 samples.

Results

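The nuclear-encoded subunits of the respiratory chain and of the ATP synthase were followed as 1 module in mouse liver after an acetaminophen overdose. Members were taken by name: symbols that begin with Nduf and an a, b, c, s or v number, with Uqcr, with Cox4 to Cox8 and an a, b or c, or with Atp5, apart from pseudogene names. Of 50657 gene symbols 86 match, and 73 reached a mean of at least 1 CPM (gene counts scaled to a common library size, here after TMM normalization) over the 24 libraries. They comprise 37 of 43 matching genes of complex I, all 8 of complex III, 10 of 17 of complex IV and all 18 of complex V. All 73 also passed the count filter of the test, which kept 13204 genes. The rule misses Cox4i1, Ndufab1 and Cyc1, which are subunits too, and it counts Ndufa4 with complex I by name, although the protein is now placed in complex IV.

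The livers came from mice with a hepatocyte-specific knockout of Egfr, the gene of the epidermal growth factor receptor (KO), and from wild-type mice (WT). Each genotype was sampled at 0, 1, 3 and 12 h after acetaminophen at 500 mg/kg, with 3 individual mice per genotype and time. No undosed mice are among the 1, 3 and 12 h samples, so effects of the drug and of handling or the hour of sampling cannot be told apart. The sources used here do not say whether the 0 h mice had received drug or vehicle, and give no Cre driver, strain, age or sex. The 6 h and 24 h times were not analysed here.

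Complex I takes electrons from NADH, complex III passes them from ubiquinol to cytochrome c, and complex IV hands them to oxygen, with protons pumped across the inner mitochondrial membrane along the way. Complex V lets the protons flow back and makes ATP. A few core subunits of these complexes are encoded in the mitochondrial genome, and the nucleus encodes the rest, which are imported. Hepatocytes are rich in mitochondria, and a reactive metabolite of acetaminophen is known to bind mitochondrial proteins and to impair respiration.

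Libraries held 20.0 to 36.2 M reads and 3.54 to 7.58 M counts on genes, with 26.3% to 30.8% of reads ambiguous between genes. Depth differed by time: the 12 h libraries held 3.54 to 4.74 M gene counts and the 0 h libraries 4.60 to 7.58 M. The 73 subunits drew 8910 to 26813 counts per library, or 0.252% to 0.357% of gene counts. Both mitochondrial ribosomal RNA genes together took 39.6% to 50.4% of gene counts, the most at 12 h. Egfr was lower in KO on average, just short of the threshold by edgeR's quasi-likelihood test (log2 fold change -1.51, adjusted p = 0.0504), and 1 library labelled KO at 1 h (replicate 1) held 335 CPM of Egfr, above the lowest WT 1 h value of 332 CPM. Hepatocyte markers were abundant in every library, and those of neutrophils, lymphocytes and muscle were too low to test. In bulk liver, fewer cells of a type and less RNA per cell cannot be told apart.

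In counts taken without regard to strand, the catalytic head of the ATP synthase held the highest members. Atp5f1b, the beta subunit, averaged 394 CPM over the 24 libraries, and Atp5f1a, the alpha subunit, averaged 274 CPM. In complex I the highest were Ndufb9, an accessory subunit of the membrane arm, at 105 CPM and Ndufv2, an iron-sulfur subunit of the NADH-binding module, at 63.8 CPM. Complex III was led by Uqcrc1, a core protein, at 70.9 CPM and Uqcrfs1, the Rieske iron-sulfur protein, at 54.8 CPM, and complex IV by Cox6c at 92.8 CPM and Cox7b at 73.2 CPM. The lowest of each complex were Ndufa1 at 3.61 CPM, Uqcr11 at 12.9 CPM, Cox7a2 at 13.1 CPM and Atp5mc2 at 3.31 CPM. Per kilobase of exon of the principal transcript, a length available for 69 members, Atp5f1b stayed first with 206 CPM per kilobase, followed by Cox6c with 184, Atp5f1c, the gamma subunit, with 149.9, Ndufb9 with 149.8 and Cox7c with 133.

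Counts of some members are incomplete. Reads were counted without regard to strand, and a read that overlaps genes on both strands is then dropped as ambiguous. Gene-strand counts were 3.64 times the unstranded ones for Ndufa1, 2.65 times for Atp5mk, 1.83 times for Cox7a2 and 1.82 times for Uqcrc2. The order of levels given above changes with this: summed over the libraries, gene-strand counts were 10853 for Uqcrc2, 9811 for Uqcrc1 and 7653 for Uqcrfs1, and the lowest members were Ndufa11 in complex I with 610 (Ndufa1 had 1811) and Cox7a2l in complex IV with 2532 (Cox7a2 had 3386). In addition, 25 members share a stretch of at least 100 bases and 95% identity with a transcript of another gene in the GRCm38 annotation, and reads with more than 1 place in the genome are not counted. Values of these members are uncertain to that extent.

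Where a subunit has tissue isoforms, the liver form was the one detected. Cox6a1, Cox6b1, Cox7a2 and Cox8a were members, at 65.3, 42.2, 13.1 and 63.1 CPM. Cox6a2 and Cox7a1, the forms of heart and skeletal muscle, averaged 0.00613 and 0.0613 CPM, Cox8b 0.0397 CPM, and Cox6b2, known from testis, 0.407 CPM. Ndufa4l2, the hypoxia-inducible relative of Ndufa4, averaged 0.0817 CPM, against 51.9 CPM for Ndufa4. The remaining names that were not kept are Ndufb4b, Ndufb4c, Ndufs6b, Ndufa11b, Ndufb11b, Cox7b2, Cox8c and, nearest to the limit, Cox6c2 with 0.511 CPM. The c ring of the ATP synthase is encoded by 3 genes that yield the same mature protein. Atp5mc3 was the highest of them in all 8 groups, with group means of 45.9 to 63.2 CPM, while Atp5mc1 had 20.4 to 30.4 CPM and Atp5mc2 2.73 to 4.10 CPM. Atp5mc2 shares 645 bases at 100% identity, and Atp5mc1 411 bases at 99.8%, with a transcript of another gene. No such stretch was found for Atp5mc3. Reads of Atp5mc1 and Atp5mc2 may thus be lost, and the order is that of counted reads.

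Promoters from RefSeq (GRCm38.p6), each spanning 250 bases before to 50 bases after the transcription start, were available for 61 of the 73 genes. They were searched on both strands for short motifs of factors known to act on respiratory genes. The NRF1 motif GCANGCGC was found in 23 of the 61 genes (37.7%), against 10.8% of all 27025 genes in the table. The ETS motif CCGGAAG of GABPA was found in 23.0% against 9.93%, the YY1 motif AAGATGGCG in 11.5% against 1.64% and the motif TGACCTTG of the estrogen-related receptors (ERR) in 4.92% against 1.76%. The TATA box TATAAA was found in 8.2% of the genes, against 15.7%. Median GC content was 57.5% in members' promoters and 52.7% in all promoters, and its part in these shares was not tested. A match is a run of letters, not a shown binding site. The promoters of 5 members that passed a test described further on are printed to show where the motifs sit, with every match to a searched motif in capitals. They lie at chr4:123718137-123718436 on the minus strand for Ndufs5, chr6:126849095-126849394 on the minus strand for Ndufa9, chr9:108936398-108936697 on the plus strand for Uqcrc1, chr13:86046746-86047045 on the minus strand for Cox7c and chr2:73911277-73911576 on the minus strand for Atp5mc3.
Ndufs5: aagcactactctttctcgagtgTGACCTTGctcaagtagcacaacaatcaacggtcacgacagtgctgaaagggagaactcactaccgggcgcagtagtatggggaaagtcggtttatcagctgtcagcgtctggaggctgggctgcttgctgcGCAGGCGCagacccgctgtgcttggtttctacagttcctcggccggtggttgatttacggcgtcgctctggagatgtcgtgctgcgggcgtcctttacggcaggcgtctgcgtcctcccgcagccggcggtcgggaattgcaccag
Ndufa9: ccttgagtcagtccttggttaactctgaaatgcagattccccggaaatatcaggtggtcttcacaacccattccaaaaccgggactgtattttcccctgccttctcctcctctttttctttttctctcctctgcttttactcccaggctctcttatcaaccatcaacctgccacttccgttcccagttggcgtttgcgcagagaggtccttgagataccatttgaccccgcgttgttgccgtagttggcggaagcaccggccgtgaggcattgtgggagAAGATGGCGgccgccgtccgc
Uqcrc1: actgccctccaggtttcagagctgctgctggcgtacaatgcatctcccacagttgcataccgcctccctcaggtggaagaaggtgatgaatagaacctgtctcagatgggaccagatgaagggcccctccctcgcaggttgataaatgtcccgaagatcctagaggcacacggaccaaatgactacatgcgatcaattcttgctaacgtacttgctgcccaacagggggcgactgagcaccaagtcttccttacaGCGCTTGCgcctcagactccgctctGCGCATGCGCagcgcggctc
Cox7c: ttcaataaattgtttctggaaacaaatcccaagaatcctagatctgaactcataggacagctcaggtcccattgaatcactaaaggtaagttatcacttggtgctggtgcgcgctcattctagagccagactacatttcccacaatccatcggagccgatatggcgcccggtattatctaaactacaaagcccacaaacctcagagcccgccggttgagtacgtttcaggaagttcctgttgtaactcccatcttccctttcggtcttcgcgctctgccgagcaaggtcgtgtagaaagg
Atp5mc3: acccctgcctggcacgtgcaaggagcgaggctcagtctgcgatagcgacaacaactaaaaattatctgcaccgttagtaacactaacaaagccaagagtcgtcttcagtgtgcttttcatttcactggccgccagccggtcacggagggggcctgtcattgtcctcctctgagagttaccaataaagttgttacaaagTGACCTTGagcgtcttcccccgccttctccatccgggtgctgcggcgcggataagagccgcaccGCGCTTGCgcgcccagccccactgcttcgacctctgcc
In Ndufs5 an NRF1 match begins 96 bases and an ERR match 228 bases before the transcription start. Ndufa9 holds a YY1 match from base 30 of the transcript, Uqcrc1 holds NRF1 matches from bases 6, 31 and 33, and Atp5mc3 holds an NRF1 match from base 13 and an ERR match 52 bases before the start. Cox7c holds none of these letters in this window.

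Summed over all 73 members, the module differed little between groups. At 0 h the sum was 3180.4 ± 129 CPM in KO and 2967 ± 71.0 CPM in WT (SD, n = 3 each, as for the next values). It was 3014 ± 181 CPM in KO and 3187 ± 44.4 CPM in WT at 1 h, and 3191 ± 42.6 CPM in KO and 2854 ± 373 CPM in WT at 3 h. By 12 h it was 3152 ± 74.3 CPM in KO and 3415 ± 38.5 CPM in WT. The 3 WT 12 h libraries, at 3450.3, 3374 and 3421 CPM, lay above every library of the other groups. Complex V alone summed to 1371 ± 59.7 CPM in KO and 1520.2 ± 29.8 CPM in WT at 12 h, with 1356 ± 71.3 CPM in KO and 1278 ± 35.95 CPM in WT at 0 h.

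**Figure D1:**
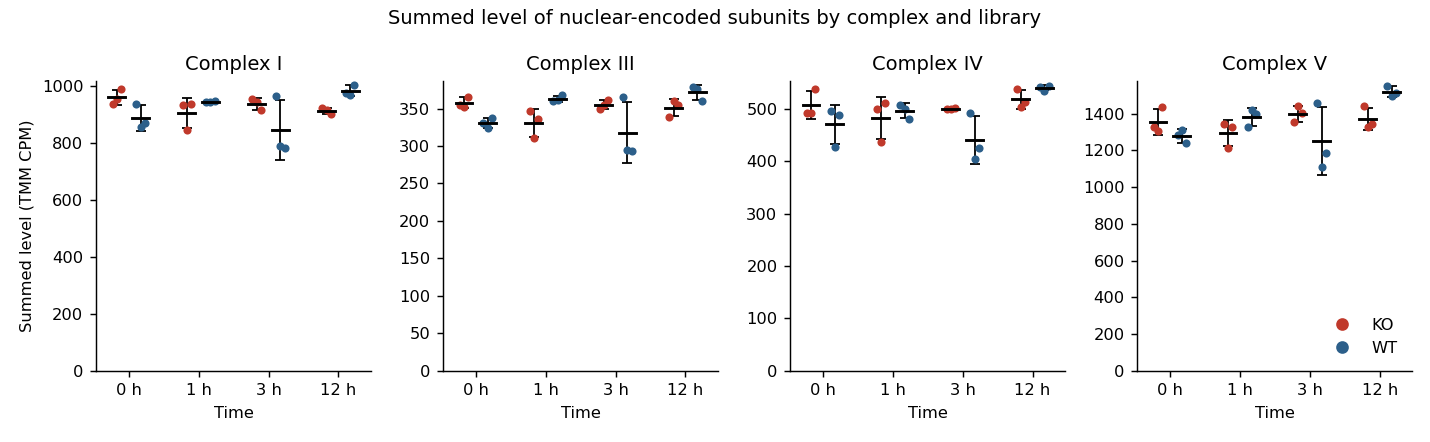
Summed level of the members of each complex (TMM CPM, vertical axis) at 0, 1, 3 and 12 h. Points are libraries, red for KO and blue for WT, bars are means and whiskers SD of 3 libraries. For complex V the WT 12 h libraries reach 1495 to 1553 CPM, while the WT 3 h libraries spread from 1109 to 1458 CPM.

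The WT 3 h group was split. Its replicates 2 and 3 summed to 2595 and 2685 CPM, the lowest of the 24 libraries, and its replicate 1 to 3282 CPM. Both were below replicate 1 in 63 of the 73 members and both above it in 4. Red blood cell markers summed to 252 and 331 CPM in replicates 2 and 3, against 80.1 CPM in replicate 1 and 42.2 to 146 CPM in the other groups. Kupffer cell markers summed to 102 and 141 CPM in them and 61.0 CPM in replicate 1. The WT 0 h libraries reached similar sums, with 66.9, 110 and 135 CPM. The summed hepatocyte markers, most of the sum being Alb, were higher in both than in replicate 1. Alb had 34080 and 37490 CPM in replicates 2 and 3, against 28570 CPM in replicate 1, and Serpina1a was also higher in both. Cyp2e1 (2294 and 1862 against 2872 CPM) and Cps1 (3385 and 3974 against 5182 CPM) were lower in both. Apoa1, Ttr and Arg1 were higher in 1 of them and lower in the other. The part of blood content in the subunit levels was not tested. Counts of members called in comparisons with this group are given with and without these libraries.

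**Figure D2:**
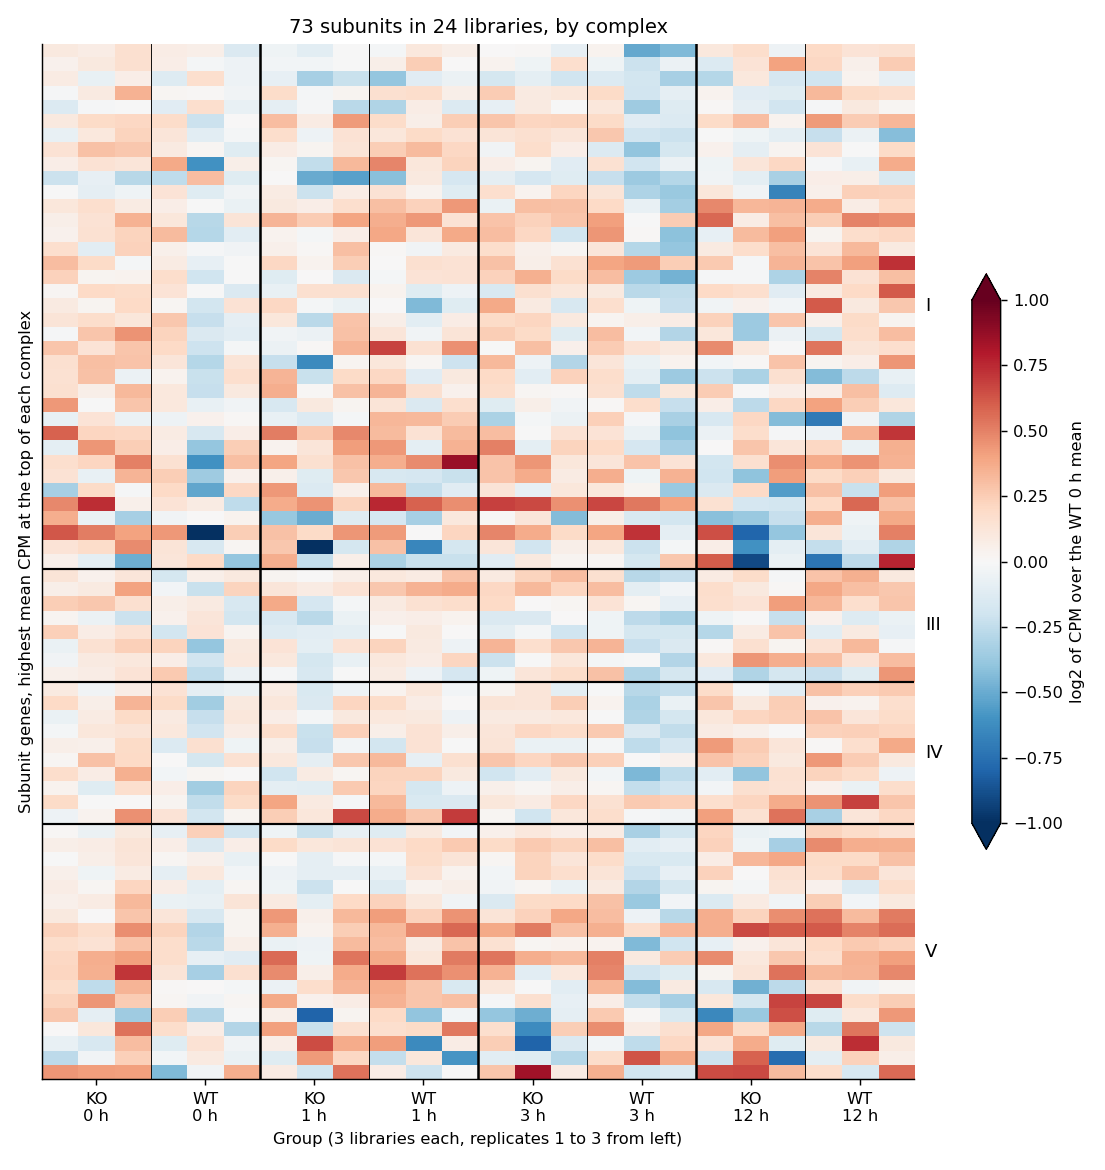
Level of each of the 73 members (vertical axis, by complex and then by mean CPM, without names) in each of the 24 libraries (horizontal axis, KO left of WT), as log2 of CPM over the WT 0 h mean, with colours that saturate at -1 and 1. WT 3 h replicates 2 and 3 stand apart from replicate 1, being lower in 63 members.

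Single members varied little between mice and between groups. The median biological coefficient of variation was 0.106 for members and 0.116 for the 9116 tested genes in the same CPM range. Between the lowest and the highest of the 8 group means, members spanned a median of 0.38 on the log2 scale and those genes 0.61. Ndufs5, an accessory subunit of complex I, had the widest span with 0.63. The highest group mean was that of WT 12 h for 28 members and of WT 1 h for 15, and the lowest that of WT 3 h for 28 and of WT 0 h for 16.

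At 1 h after acetaminophen, 3 of the 73 subunits had risen in WT livers relative to 0 h and none had fallen, by edgeR's quasi-likelihood test with Benjamini-Hochberg adjustment over all genes at 0.05. They were Ndufs5 and the ATP synthase genes Atp5mc1, for the c ring, and Atp5mk, for a small membrane subunit. Of all genes tested, 4.09% were higher and 4% lower, so the members' share of 4.11% is near the background. The median log2 fold change was 0.09 over the members and -0.01 over all genes. At an unadjusted p under 0.05 there were 12 members in either direction, and DESeq2 called 1 higher and none lower. The share of all genes at that unadjusted cutoff is not given, here or below, so such counts have no background.

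Ndufs5 had 10.7, 9.56 and 8.76 CPM in the WT 1 h mice, against 6.96, 6.73 and 5.33 CPM in the WT 0 h mice, with no overlap (log2 fold change 0.62, SE 0.18, adjusted p = 0.0301). For Atp5mc1 the levels were 33.2, 29.8 and 28.1 CPM in the WT 1 h mice, against 22.3, 16.2 and 22.8 CPM in the WT 0 h mice, again apart (0.56, SE 0.17, adjusted p = 0.0387). Both genes have a processed pseudogene of high identity, 99.4% over 319 bases for Ndufs5 and 99.8% over 411 bases for Atp5mc1, so reads may be lost to it. Atp5mk reached 41.2, 45.8 and 49.1 CPM in the WT 1 h mice, against 38.3, 26.9 and 33.4 CPM in the WT 0 h mice, also without overlap (0.45, SE 0.13, adjusted p = 0.0206). In the complexes without a call the smallest p belonged to Uqcrfs1 in complex III (0.32, adjusted p = 0.0952) and Cox7a2 in complex IV (0.44, adjusted p = 0.123). Leaving out 1 library at a time gave 0 to 2 higher members, with 0 without WT 0 h replicate 2. Of 7 Kupffer cell markers 5 were lower, with sums of 48.1 to 56.5 CPM in WT at 1 h and 66.9 to 135 CPM in WT at 0 h, and their part in these results was not tested.

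**Figure D3:**
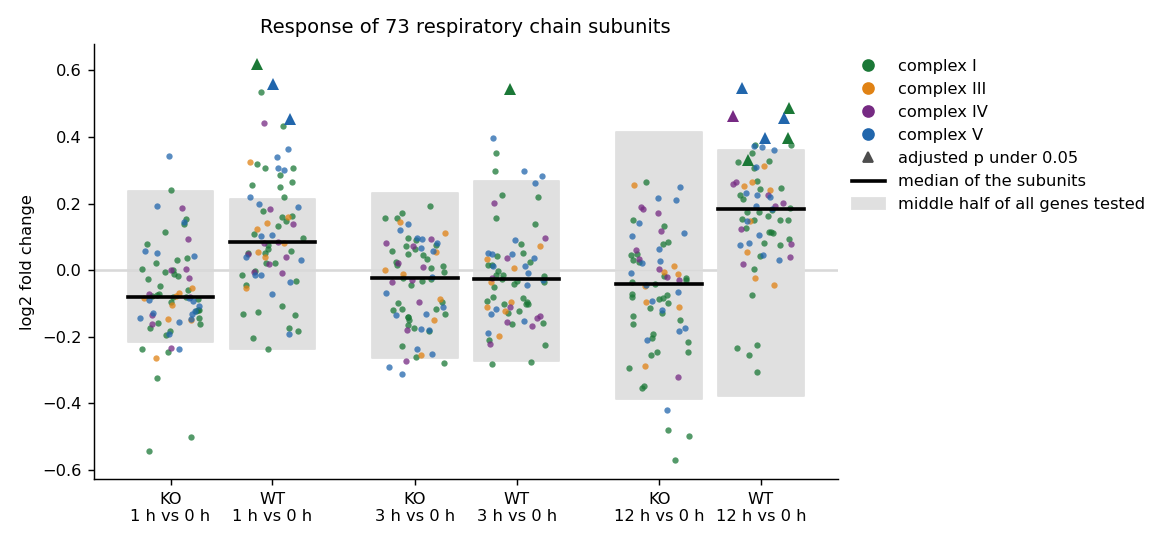
Log2 fold change against 0 h (vertical axis) of the 73 members at 1, 3 and 12 h, KO left of WT. Points are coloured by complex, triangles mark an adjusted p under 0.05, black lines are the members' medians and grey bands run from the lower to the upper quartile of all genes tested. The median at 12 h is -0.04 in KO and 0.18 in WT, and triangles appear in WT panels only (counts taken without regard to strand).

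At 3 h the WT median was -0.03, with 0.00 over all genes. Ndufs5 alone had risen, with 10.0, 9.14 and 8.36 CPM in the WT 3 h mice, against 6.96, 6.73 and 5.33 CPM in the WT 0 h mice (0.54, SE 0.19, adjusted p = 0.0465). None had fallen, while 7.28% of all genes were higher and 6.85% lower. At an unadjusted p under 0.05 there were 4 members, and DESeq2 called none. No member was called without WT 3 h replicates 2 and 3, and none was higher when any 1 of the 6 libraries was left out. Gene-strand counts gave 2 higher members, Ndufs5 and Atp5mk. By complex the median ran from -0.13 in complex IV to 0.02 in complex V.

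At 12 h, 7 members had risen in WT livers relative to 0 h and none had fallen, while 13.4% of all genes were higher and 12.2% lower. The members' share called, 9.59%, lies below the 25.6% of all genes called in either direction. Of the 73 estimates 66 were above 0, with a median of 0.18, whereas 6487 of 13204 genes were above 0, with a median of -0.01. The median was 0.16 in complex I, 0.19 in complex III, 0.20 in complex IV and 0.22 in complex V, where all 18 estimates were above 0. At an unadjusted p under 0.05 there were 13 members, and DESeq2 called 6 higher and none lower.

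In complex I, Ndufv3, an accessory subunit of the NADH-binding module, had 21.2, 23.1 and 28.8 CPM in the WT 12 h mice, against 18.4, 16.4 and 17.3 CPM in the WT 0 h mice (log2 fold change 0.49, SE 0.14, adjusted p = 0.00989). Ndufc2, of the membrane arm, had 20.6, 24.5 and 23.9 CPM in the WT 12 h mice, against 18.7, 14.3 and 18.9 CPM in the WT 0 h mice (0.40, SE 0.15, adjusted p = 0.0485). Ndufa4 had 61.7, 54.7 and 57.8 CPM in the WT 12 h mice, against 52.2, 39.5 and 46.1 CPM in the WT 0 h mice (0.33, SE 0.12, adjusted p = 0.042). In all 3 genes the 12 h mice lay above the 0 h mice without overlap. In complex III none passed in counts taken without regard to strand, and the smallest p was that of Uqcrfs1 (0.31, adjusted p = 0.0589). With gene-strand counts Uqcrfs1 passed (0.34, SE 0.12, adjusted p = 0.0405). Complex IV had 1 call without regard to strand, Cox7a2l, a factor that helps to join complexes III and IV into supercomplexes. Cox7a2l had 22.5, 26.4 and 20.0 CPM in the WT 12 h mice, against 16.8, 13.9 and 18.8 CPM in the WT 0 h mice and no overlap (0.46, SE 0.15, adjusted p = 0.0258). With gene-strand counts Cox6c of complex IV passed as well (0.31, SE 0.11, adjusted p = 0.0385).

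In complex V, Atp5mk showed the largest rise of the 7, with 50.3, 46.4 and 48.5 CPM in the WT 12 h mice, against 38.3, 26.9 and 33.4 CPM in the WT 0 h mice (log2 fold change 0.55, SE 0.13, adjusted p = 0.002). On gene-strand counts, which hold more of its reads, the log2 fold change was 0.71. Atp5mc3, the c-ring gene with the most counted reads, had 66.7, 57.2 and 65.6 CPM in the WT 12 h mice, against 50.01, 41.0 and 46.6 CPM in the WT 0 h mice (0.46, SE 0.13, adjusted p = 0.0119). Atp5f1a, the alpha subunit, had 344, 321 and 319 CPM in the WT 12 h mice, against 261, 226 and 260.2 CPM in the WT 0 h mice (0.40, SE 0.12, adjusted p = 0.0159). None of these 3 genes showed overlap between the times. Leaving out 1 library at a time gave 2 to 6 higher members, the fewest without WT 0 h replicate 2. Of 5 bile duct markers 2 could be tested and 1, Sox9, was higher. The markers summed to 109 to 221 CPM in WT at 12 h and 19.1 to 24.6 CPM in WT at 0 h. Most of this rise was Sox9, with a mean of 144.8 CPM at 12 h and 10.6 CPM at 0 h. Spp1 did not pass (0.62, adjusted p = 0.415), and Krt19, Krt7 and Epcam averaged under 1 CPM at both times. The part of these markers was not tested.

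**Figure D4:**
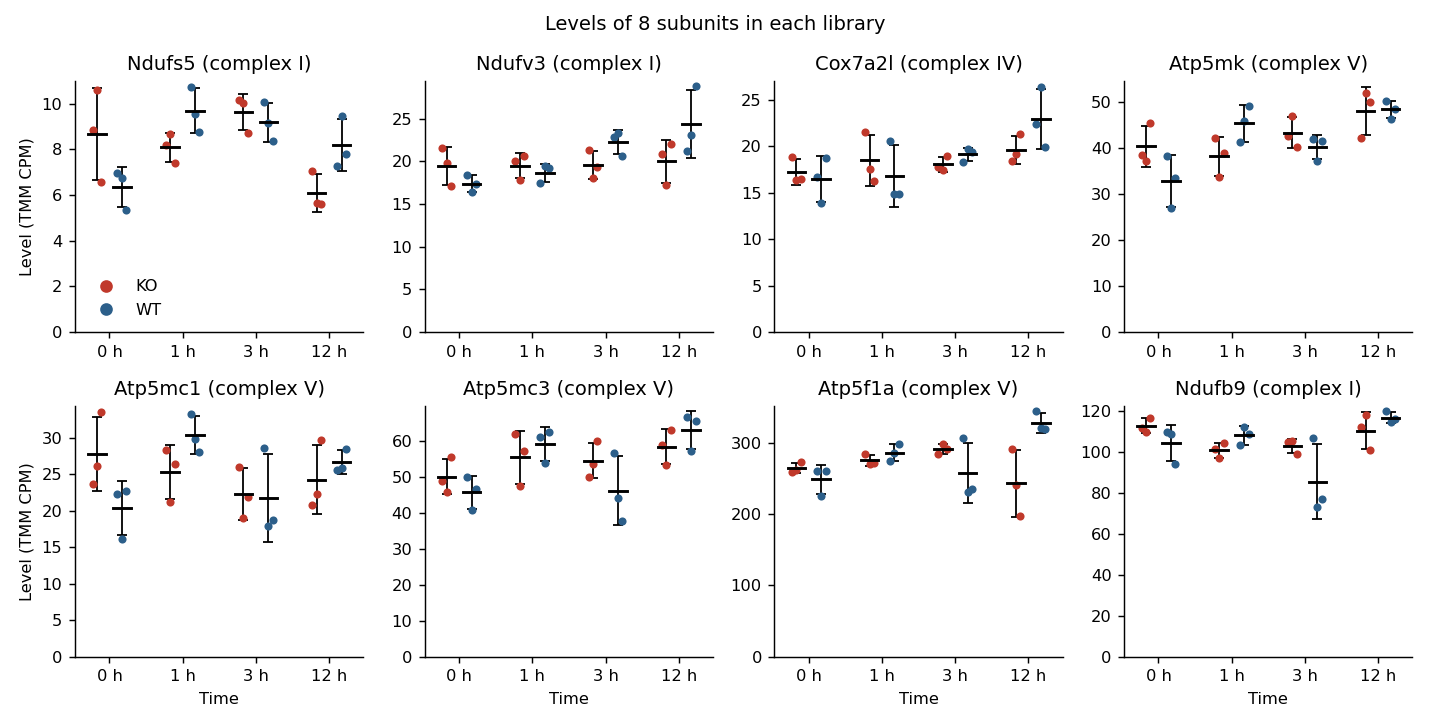
Level (TMM CPM, vertical axis) of 8 members that passed a test, in every library at 0, 1, 3 and 12 h. Points are libraries, red for KO and blue for WT, bars are means and whiskers SD of 3 libraries. For Atp5f1a the WT 12 h libraries hold 344, 321 and 319 CPM, above all others.

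The direction of the 12 h change rests on the scaling. TMM places the middle of all genes near 0. With library size alone, which counts mitochondrial ribosomal RNA in full, the WT median was -0.17 for members and -0.37 for all genes, and 7 members were called lower and none higher, beside 33.2% of all genes lower. With library size without that RNA the medians were 0.01 and -0.19, with 1 member higher and 1 lower, the shares of all genes not being given. Changes at 12 h are therefore stated against the typical gene. The members' median in WT lay above that of all genes under all 3 scalings. A scaling shifts all genes nearly alike, so it could hardly change this order, which is no separate support.

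In KO livers no member passed against 0 h at 1, 3 or 12 h, by edgeR or by DESeq2, in counts taken without regard to strand. Gene-strand counts gave 1 higher member, Atp5mk at 12 h. At 1 h the members' median was -0.08 and 3 had an unadjusted p under 0.05, while 3.95% of all genes were higher and 3.64% lower. At 3 h it was -0.03 with 2 such members, while 5.11% of all genes were higher and 4.84% lower. At 12 h it was -0.04 with 4, while 15.1% of all genes were higher and 13.7% lower. The 95% interval lay within a 1.5-fold change either way for 63, 63 and 58 members at 1, 3 and 12 h. Nearest to the threshold were Ndufa3, an accessory subunit of complex I, at 1 h (-0.50, SE 0.17, adjusted p = 0.062), Ndufs5 at 12 h (-0.50, SE 0.21, adjusted p = 0.0719) and Cox5b, an accessory subunit of complex IV, at 12 h (-0.32, SE 0.14, adjusted p = 0.0783); these 3 were chosen after their values were seen.

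The 7 genes that rose in WT at 12 h had estimates of -0.12 to 0.25 in KO, none of which passed in those counts. Atp5mk had 42.2, 52.1 and 49.9 CPM in the KO 12 h mice, against 38.5, 37.2 and 45.4 CPM in the KO 0 h mice, which overlap (log2 fold change 0.25, SE 0.13, adjusted p = 0.144). In gene-strand counts it had 127, 137 and 147 CPM in the KO 12 h mice, against 91.8, 91.8 and 110.0 CPM in the KO 0 h mice, without overlap, and passed (log2 fold change 0.48, SE 0.13, adjusted p = 0.0047). Atp5mc3 had 58.9, 53.6 and 63.2 CPM in the KO 12 h mice, against 49.1, 46.0 and 55.6 CPM in the KO 0 h mice, which overlap (0.22, SE 0.14, adjusted p = 0.239). For Ndufv3 the levels were 20.8, 17.2 and 22.0 CPM in the KO 12 h mice, against 21.5, 19.8 and 17.1 CPM in the KO 0 h mice, also overlapping (0.03, SE 0.14, adjusted p = 0.895). Atp5f1a spread widely among the KO 12 h mice, with 291, 241 and 198 CPM in the KO 12 h mice, against 259, 262 and 272 CPM in the KO 0 h mice (-0.12, SE 0.12, adjusted p = 0.505). The difference of the responses did not pass for any of the 7, with the smallest adjusted p that of Atp5f1a (-0.52, SE 0.17, adjusted p = 0.311).

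Scaling mattered in KO at 12 h as well. With library size alone 22 members were called lower and none higher, beside 26.8% of all genes lower, with medians of -0.29 for members and -0.26 for all genes. With library size without mitochondrial ribosomal RNA 6 were called lower, with medians of -0.16 and -0.12. The share of all genes lower under this scaling is not given.

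**Figure D5:**
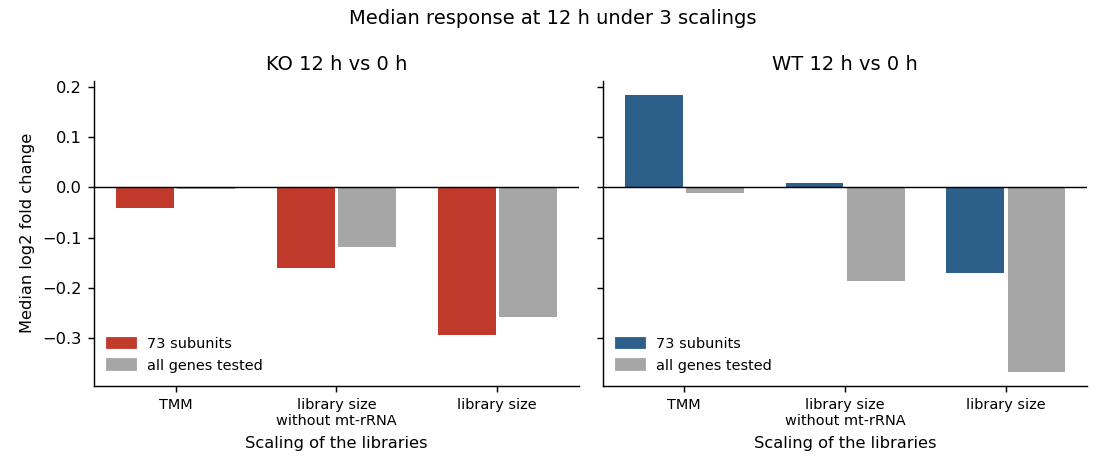
Median log2 fold change at 12 h against 0 h (vertical axis) of the 73 members and of all genes tested under 3 scalings of the libraries (horizontal axis), KO left of WT. With library size alone both medians lie below 0, at -0.29 and -0.26 in KO and at -0.17 and -0.37 in WT.

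From 3 h to 12 h, 7 members rose in WT and none fell, while 7.43% of all genes were higher and 5.38% lower. They were Ndufb9 and Ndufa9 of complex I, Uqcrc1 of complex III, Cox6c and Cox7c of complex IV, and Atp5mc3 and Atp5po of complex V, the last encoding the stalk protein OSCP. Ndufb9 had 120.2, 115 and 116 CPM in the WT 12 h mice, against 107, 73.1 and 77.1 CPM in the WT 3 h mice (log2 fold change 0.45, SE 0.12, adjusted p = 0.00893). Cox6c had 112, 107 and 109 CPM in the WT 12 h mice, against 90.6, 75.2 and 77.3 CPM in the WT 3 h mice (0.43, SE 0.11, adjusted p = 0.00702). The times did not overlap in these 2 genes, and replicates 2 and 3 were the low ones at 3 h. Cox7c had 83.5, 74.8 and 78.1 CPM in the WT 12 h mice, against 68.4, 55.9 and 60.9 CPM in the WT 3 h mice (0.35, SE 0.11, adjusted p = 0.0331), and Atp5po had 31.9, 33.3 and 32.7 CPM in the WT 12 h mice, against 28.6, 20.5 and 24.3 CPM in the WT 3 h mice (0.41, SE 0.14, adjusted p = 0.0487), both without overlap. Ndufa9 had 19.3, 20.8 and 27.8 CPM in the WT 12 h mice, against 19.4, 15.0 and 15.3 CPM in the WT 3 h mice, which overlap (0.45, SE 0.15, adjusted p = 0.0497), and so did the values of Uqcrc1 (0.35, SE 0.12, adjusted p = 0.0463). DESeq2 called 6 higher and none lower. An unadjusted p under 0.05 was found for 25 members, with no share of all genes at that cutoff to set beside them. Without WT 3 h replicates 2 and 3 no member was called, without replicate 2 alone 1 was, and without replicate 1 alone 18 were. The shares of all genes called in the fits with libraries left out are not given, so these counts have no background. With library size alone 0 members were higher and 2 lower, with medians of -0.04 for members and -0.28 for all genes, against 0.23 and -0.01 with TMM.

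Over the same interval in KO, 1 member fell and none rose, while 7.84% of all genes were higher and 5.06% lower. It was Ndufs5, with 7.03, 5.65 and 5.59 CPM in the KO 12 h mice, against 10.2, 10.0 and 8.71 CPM in the KO 3 h mice and no overlap (log2 fold change -0.66, SE 0.21, adjusted p = 0.0341). DESeq2 called no member, and 5 members had an unadjusted p under 0.05 by edgeR. Leaving out 1 library at a time gave 0 to 2 lower members, with 2 without KO 12 h replicate 1. The median was 0.01 over the members and 0.01 over all genes. With library size alone 11 members were lower, with a median of -0.24 for members and for all genes, and gene-strand counts gave 0. The share of all genes lower in these fits is not given.

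Set against WT at the same time, no subunit in KO livers passed by edgeR or by DESeq2. Few genes of any kind did: 0.0151% of all genes at 0 h, 0.492% at 1 h, 0.977% at 3 h, 0.053% at 12 h and 0% in the average over times. Unadjusted p lay under 0.05 for 5 members at 0 h, 2 at 1 h, 9 at 3 h, 5 at 12 h and 2 in the average. The members' median was 0.12 at 0 h, -0.06 at 1 h, 0.11 at 3 h and -0.11 at 12 h, and 0.03 in the average, against 0.00, 0.01, -0.01, 0.01 and 0.00 for all genes. In the average the 95% interval lay within a 1.5-fold difference either way for 72 of 73 members, the exception being the low Atp5mc2 (0.33, SE 0.15, adjusted p = 0.695).

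Some single members are given for their difference between genotypes, none of which passed. They were chosen after their values were seen, and only Atp5f1a stood apart. Atp5f1a had 291, 241 and 198 CPM in the KO 12 h mice, against 344, 321 and 319 CPM in the WT 12 h mice, with no overlap (log2 fold change -0.43, SE 0.12, adjusted p = 0.168). Ndufs5 had 8.87, 10.6 and 6.58 CPM in the KO 0 h mice, against 6.96, 6.73 and 5.33 CPM in the WT 0 h mice, which overlap (0.45, SE 0.18, adjusted p = 0.503). Ndufb8, of the membrane arm of complex I, had 21.8, 23.7 and 21.2 CPM in the KO 3 h mice, against 23.0, 14.4 and 13.4 CPM in the WT 3 h mice, which overlap (0.37, SE 0.16, adjusted p = 0.376). Its low WT 3 h values were those of replicates 2 and 3. At 3 h, 3 members were called without WT 3 h replicate 1 and 0 without replicates 2 and 3, and at 12 h 1 was called without KO 12 h replicate 1. Of 5 red blood cell markers 3 were lower in KO than in WT at 3 h, all haemoglobin genes, with a log2 fold change of -2.34 for Hbb-bs (adjusted p = 0.0207), and their part was not tested.

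Whether the genotypes responded differently was tested as the KO response minus the WT response. No member passed by edgeR or by DESeq2, beside 0.454% of all genes at 1 h, 0.151% at 3 h and 0.0227% at 12 h. Unadjusted p lay under 0.05 for 8 members at 1 h, 0 at 3 h and 11 at 12 h. Leaving WT 3 h replicates 2 and 3 out gave 0 called members in the 3 h difference. The median over members was -0.20 at 1 h, -0.01 at 3 h and -0.25 at 12 h, against 0.01, 0.00 and 0.02 over all genes. These estimates share the 0 h mice with the comparison at 0 h. Ndufs5 had the largest estimate at 12 h (-0.87, SE 0.29, adjusted p = 0.311). Most of the 73 members had a 95% interval that reached past a 1.5-fold difference of responses at 12 h. For 64 members it lay within a 2-fold one, so the responses at 12 h are not shown to differ between KO and WT.

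Atp5if1, the inhibitor that keeps the ATP synthase from running backwards, was low throughout and passed no test. At 12 h it had 4.10, 7.12 and 2.79 CPM in the KO 12 h mice, against 4.43, 5.56 and 4.93 CPM in the WT 12 h mice, which overlap.

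Among genes outside the name rule, Cycs, which encodes cytochrome c, the mobile electron carrier between complexes III and IV, rose early in WT. It had 49.7, 51.6 and 50.4 CPM in the WT 1 h mice, against 32.6, 32.6 and 31.98 CPM in the WT 0 h mice, with no overlap (log2 fold change 0.64, SE 0.14, adjusted p = 0.00203). It did not pass at 3 h (0.24, SE 0.14, adjusted p = 0.284) and was higher at 12 h (0.47, SE 0.14, adjusted p = 0.0127). In KO it had 41.6, 32.8 and 43.2 CPM in the KO 1 h mice, against 38.0, 43.0 and 41.2 CPM in the KO 0 h mice, which overlap (-0.06, SE 0.13, adjusted p = 0.872), and the difference of the responses did not pass (-0.70, SE 0.19, adjusted p = 0.0992). Cox4i1, a large nuclear-encoded subunit of complex IV, rose in WT between 3 h and 12 h (0.40, SE 0.11, adjusted p = 0.0172), a call lost under 7 of 15 alternatives, among them library size alone and the fit without WT 3 h replicates 2 and 3. None of the 4 subunits of complex II, succinate dehydrogenase, passed in any of the 16 comparisons.

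Of the 13 subunits encoded in the mitochondrial genome, 4 rose and none fell in KO at 12 h, and 3 rose and 1 fell in WT, while of all genes 15.1% were higher and 13.7% lower in KO and 13.4% higher and 12.2% lower in WT. The mitochondrial ribosomal RNA genes rose as well, mt-Rnr1 in KO (0.57, SE 0.15, adjusted p = 0.00395) and in WT (0.57, SE 0.15, adjusted p = 0.00431) and mt-Rnr2 in WT (0.55, SE 0.15, adjusted p = 0.00549). ND5, of complex I, had a log2 fold change of 0.72 (SE 0.13, adjusted p = 7.82e-05) in KO and 0.61 (SE 0.13, adjusted p = 0.000598) in WT. ND6, the subunit gene on the other strand, had 0.99 (SE 0.15, adjusted p = 5.48e-06) in KO and 0.76 (SE 0.15, adjusted p = 0.00023) in WT, but with gene-strand counts 0.17 in KO (adjusted p = 0.404). ND3 fell in WT (-0.39, SE 0.14, adjusted p = 0.0351). Counts of this list are uneven: ND3 averaged 73.8 CPM and ND4L, one of those that rose, 10.3 CPM, against 14560.0 CPM for ND5, and the cause was not tested.

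Of the assembly factors, some rose and some fell at 12 h, set against the shares of all genes just given. Of 15 for complex I, 1 fell in KO, Ndufaf1 (-0.91, SE 0.23, adjusted p = 0.002), and none passed in WT. Of 6 for complex III, Ttc19 rose in KO (0.52, SE 0.15, adjusted p = 0.00893) and in WT (0.49, SE 0.15, adjusted p = 0.0149), although with gene-strand counts its values were -0.08 and 0.19, and Uqcc1 fell in WT (-0.51, SE 0.16, adjusted p = 0.0207). Of 13 tested for complex IV, 2 rose and 2 fell in KO, and 1 rose and 1 fell in WT. Higd1a, a small inner-membrane protein that binds complex IV, had 18.2, 14.0 and 15.0 CPM in the KO 12 h mice, against 10.8, 11.8 and 10.1 CPM in the KO 0 h mice (0.53, SE 0.17, adjusted p = 0.0179), a call lost under 5 of 14 alternatives. In WT it had 26.2, 23.6 and 22.0 CPM in the WT 12 h mice, against 9.15, 12.6 and 9.33 CPM in the WT 0 h mice (1.23, SE 0.16, adjusted p = 8.61e-07), and neither genotype showed overlap. The difference of these responses did not pass (-0.70, SE 0.24, adjusted p = 0.311). Cox11, which delivers copper to complex IV, fell in KO (-0.81) and in WT (-1.10), while in KO Cox19 rose (1.03) and Cox15, which makes haem A, fell (-0.73). None of the 4 assembly factors of complex V passed in any comparison.

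Of 12 tested regulators of mitochondrial gene expression, 1 rose and 2 fell in KO at 12 h, and 1 rose and 1 fell in WT, beside 15.1% of all genes higher and 13.7% lower in KO and 13.4% higher and 12.2% lower in WT. Pprc1, a coactivator related to PGC-1, had 13.8, 16.9 and 13.3 CPM in the KO 12 h mice, against 6.33, 6.12 and 6.33 CPM in the KO 0 h mice (log2 fold change 1.24, SE 0.19, adjusted p = 8.91e-06). In WT it had 12.0, 10.0 and 9.60 CPM in the WT 12 h mice, against 6.06, 5.67 and 5.06 CPM in the WT 0 h mice (0.90, SE 0.20, adjusted p = 0.00121), again with no overlap in either genotype. Yy1 fell in KO (-0.35, SE 0.13, adjusted p = 0.0396) and in WT (-0.34, SE 0.13, adjusted p = 0.047), calls lost under 7 of 14 alternatives in KO and 9 of 14 in WT. Polrmt, the mitochondrial RNA polymerase, fell in KO (-0.95, SE 0.23, adjusted p = 0.00144). Nrf1 rose in WT at 3 h (0.46, SE 0.16, adjusted p = 0.0436), a call lost under 11 of 15 alternatives, among them DESeq2 and the fit without WT 3 h replicates 2 and 3. Among 6 carriers and channels for adenine nucleotides and phosphate, Slc25a5 rose in WT at 12 h (0.35, SE 0.11, adjusted p = 0.0161) and none passed in KO.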

How the data were processed

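Poly(A) RNA of individual mouse livers was sequenced on an AVITI instrument, per the labels. The deposited files hold read counts per gene made by the authors with STAR on the mm39 build, per the submitters' processing notes; the STAR version is not given there. Counts taken without regard to strand were used, and the gene-strand counts as an alternative. The 4 summary entries that name no gene (77.5% to 82.4% of reads) stayed out of library sizes and tests. Libraries held gene counts of 3.54 to 7.58 M, and mice of a group differed by more than counting error, with chi-square per degree of freedom of 2.18 to 19.7 between libraries of 1 group.

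Counts were tested with edgeR 4.0.16 (R 4.3.3, limma 3.58.1) by the quasi-likelihood F-test, two-sided, with TMM scaling, filterByExpr over the 8 groups, robust dispersion and all 24 libraries in 1 fit with 1 mean per group, and Benjamini-Hochberg adjustment over the 13204 genes tested at 0.05. The 16 comparisons were the changes from 0 h in each genotype, 12 h against 3 h, KO against WT at each time and averaged, and the differences of the responses. The fit was tested on simulated data for WT 12 h against 0 h. It recovered 24 of 67 genes changed 1.5-fold, 49 of 67 changed 2-fold and 64 of 66 changed 4-fold, with 11 false calls. Changes of 1.5-fold or less can therefore be missed. Alternatives were other scalings, no low-count filter, DESeq2 1.42.0, only the groups compared, a replicate block, gene-strand counts and fits with libraries left out.

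Genes are named by rule: per comparison up to 4 called members in each direction by fold change, the 2 highest and the lowest member of each complex, isoform genes, Atp5if1, the member with the smallest p in a complex without a call, and up to 3 called genes of each list. Further called members and those near the threshold were named after their values were seen. The members and the lists were chosen with earlier results of these data known. Promoters and transcripts come from GRCm38 and matched 70 of the 73 members by symbol. Coordinates of that build were not combined with those of the files. Results of 1 member are not reported singly here.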

Additional observations from a re-analysis of the deposited data

How the results depend on the processing

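Numbers of members called higher or lower are given for each setting. For all genes the share called is given only for the edgeR fit with TMM and all libraries, and for lower calls at 12 h against 0 h with library size alone. Counts under the other settings have no background. With library size alone as the scaling, higher calls were 0 in WT at 3 h, 0 at 12 h and 0 for 12 h against 3 h, and lower calls were 1, 7 and 2, with 22 lower in KO at 12 h and 11 lower for 12 h against 3 h. With library size without mitochondrial ribosomal RNA, an alternative chosen after seeing the data, WT had 0 higher and 4 lower at 3 h, 1 and 1 at 12 h and 2 higher for 12 h against 3 h, and KO had 1 lower at 1 h and 6 lower at 12 h. With no low-count filter, WT had 0 higher at 3 h, 1 at 12 h and 0 for 12 h against 3 h, and KO had 3 lower at 12 h and 2 lower for 12 h against 3 h. DESeq2 gave 1 higher in WT at 1 h, 0 at 3 h and 0 lower in KO for 12 h against 3 h. With only the groups compared, WT had 1 higher at 1 h, 0 at 3 h and 2 for 12 h against 3 h, and KO 0 lower for that step. Gene-strand counts gave 2 higher in WT at 3 h and 12 for 12 h against 3 h, and in KO 1 higher at 12 h and 0 lower for 12 h against 3 h. In WT at 12 h against 0 h they also called Uqcrfs1 and Cox6c higher. Without WT 3 h replicates 2 and 3 there were 0 higher in WT at 3 h and 0 for 12 h against 3 h. With 1 library left out, WT had 0 to 2 higher at 1 h, 0 higher and 0 to 1 lower at 3 h, 2 to 6 higher at 12 h and 1 to 18 for 12 h against 3 h, KO had 0 to 1 lower at 1 h and at 12 h and 0 to 2 for 12 h against 3 h, and KO against WT had 0 to 3 called at 3 h and 0 to 1 at 12 h. The replicate block gave 1 lower in KO at 12 h and changed no other count by over 1.5 times. Deviations of same-numbered libraries had a median r of 0.0095, against -0.0076 for different numbers. Of 84 same-numbered pairs 5 had r over 0.1, and 11 of 24 libraries were closest to their own number, with no chance value given. This measure cannot decide whether the numbers pair the mice, and the labels do not say. Relative to WT 0 h, the summed level was 0.882 in KO at 12 h and 0.900 in WT at 12 h with library size alone, and per count without mitochondrial ribosomal RNA 1.067 in KO at 0 h, 1.05 in KO at 3 h, 0.967 in KO at 12 h, 1.054 in WT at 1 h, 0.88 in WT at 3 h and 1.016 in WT at 12 h. Of the named genes, 706 results kept direction and side of the threshold, 231 lost it, 8 gained it and 3 changed sign: with library size alone Uqcrfs1 (-0.049) and Slc25a5 (-0.012) in WT at 12 h, and with gene-strand counts Ttc19 (-0.076) in KO at 12 h. Apart from the scalings, which shift all genes by construction, the cause was not tested. Depth limits the lowest members most.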
